A study of Capra hircus with 3 samples.

Results

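The desmosome and epithelial adhesion genes DSP, DSC1, DSC3, DSG1, PERP, CDH1, EPCAM and CLDN1 were followed across cell groups of fetal goat skin. They were chosen by name and not by a cut on their levels, but with earlier results of these data known. They are 8 of the 16739 genes of the expression table. All 8 had exactly 1 row in it. The skin came from the back of fetuses of the Northern Shaanxi White Cashmere Goat (Capra hircus), taken at embryonic days 60, 90 and 120 (E60, E90 and E120), which the study names induction, organogenesis and cytodifferentiation of the hair follicle. E60 and E90 were whole skin, loosened with collagenase IV and broken up with a pipette. At E120 the follicles were picked out of the collagenase-treated skin with forceps, pooled and then dissociated with TypLE Express, an enzyme reagent. Each stage was 1 droplet library of 3′ transcript ends (10x Genomics, version 3 kit) that mixed cells of at least 2 fetuses, so no stage had a replicate. No test between stages was possible, and stage cannot be told apart from dissection and dissociation.

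Epithelial cells are held together by several kinds of junction. In a desmosome, cadherins of the desmocollin (DSC) and desmoglein (DSG) families bridge neighbouring cells, and plakoglobin, plakophilins and the plakin desmoplakin (DSP) tie them to keratin filaments inside. PERP is a small membrane protein of desmosomes. E-cadherin (CDH1) is the classical cadherin of adherens junctions, claudin-1 (CLDN1) is a strand-forming protein of tight junctions, and EPCAM is a membrane glycoprotein that binds claudins. In epidermis, DSC3 and DSG3 are known mainly from the basal side, DSC1 and DSG1 from the upper layers, and DSG4 from the hair shaft and its precursors.

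The table held 20676 cells, and the design text gives 19705. Libraries held 6849, 6931 and 6896 cells at E60, E90 and E120, with a median of 8579, 3714 and 13064 transcripts (unique molecular identifiers, UMIs) per cell. Cells were clustered without the 8 genes and without other junction genes, and a cell group is the cells of a cluster within a library, if at least 50. Names ending in "-like" rest on marker genes, and each group is followed by its leading genes. Levels are UMIs of a gene per 1000000 UMIs of the group (CPM), with exact Poisson 95% intervals that cover counting error only. Epithelial-like cells numbered 1056 in 5 groups at E90 and 5879 in 12 groups at E120, and no E60 group was epithelial. At E90, 5001 cells stayed in unnamed groups, 3853 of them in 1 group led by the haemoglobin genes HBAI and HBAII. Barcodes shared between libraries numbered 9 for E60 and E90, 10 for E60 and E120 and 13 for E90 and E120. The doublet caller marked 3 of 6931 E90 cells and so did not work there.

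Endothelial-like cells, which are known to lack desmosomal cadherins of the epidermis, were taken to give the background level of each library. Free transcripts, doublets and expression by the cells themselves were not told apart in it. The stated lack does not cover DSP, PERP, CDH1, EPCAM or CLDN1. This level was high at E90, with 235 CPM of DSP, 203 CPM of DSG1, 307 CPM of CLDN1 and 71.9 CPM of DSC1 (interval 45.1 to 109) in 78 cells of a median of 3523.5 UMIs. At E120 it was 77.0 CPM of DSP, 39.6 CPM of DSG1, 39.2 CPM of CLDN1 and 11.3 CPM of DSC1 (7.65 to 16.0) in 360 cells of a median of 6414 UMIs. The large unnamed E90 group held 340 CPM of DSP, 307 CPM of DSG1, 404 CPM of CLDN1 and 94.9 CPM of DSC1, of which DSP, DSG1 and CLDN1 were above the endothelial-like level by 1.44-, 1.51- and 1.31-fold. The unnamed E90 group led by AK8 and CCNB2 (1084 cells) was above it for DSP (464 CPM, 1.97-fold), DSG1 (313 CPM, 1.54-fold), EPCAM (72.8 CPM, 2.23-fold) and CLDN1 (573 CPM, 1.87-fold). Dermal fibroblast-like cells of E90, of a median of 6865.5 UMIs, held less, with 78.6 CPM of DSP, 86.0 CPM of DSG1, 111 CPM of CLDN1 and 31.7 CPM of DSC1, so the background of the E90 library was not even between cell types. The E120 background was not even either: mast-like cells held more DSP, DSG1 and CLDN1 than endothelial-like cells, with values given under Other observations. A group is called above the endothelial-like level where the interval of the ratio lies over 1, and a level that is not above it cannot be told apart from background by that measure. A level above it can still lie under that of other non-epithelial cells of the library.

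**Figure D1:**
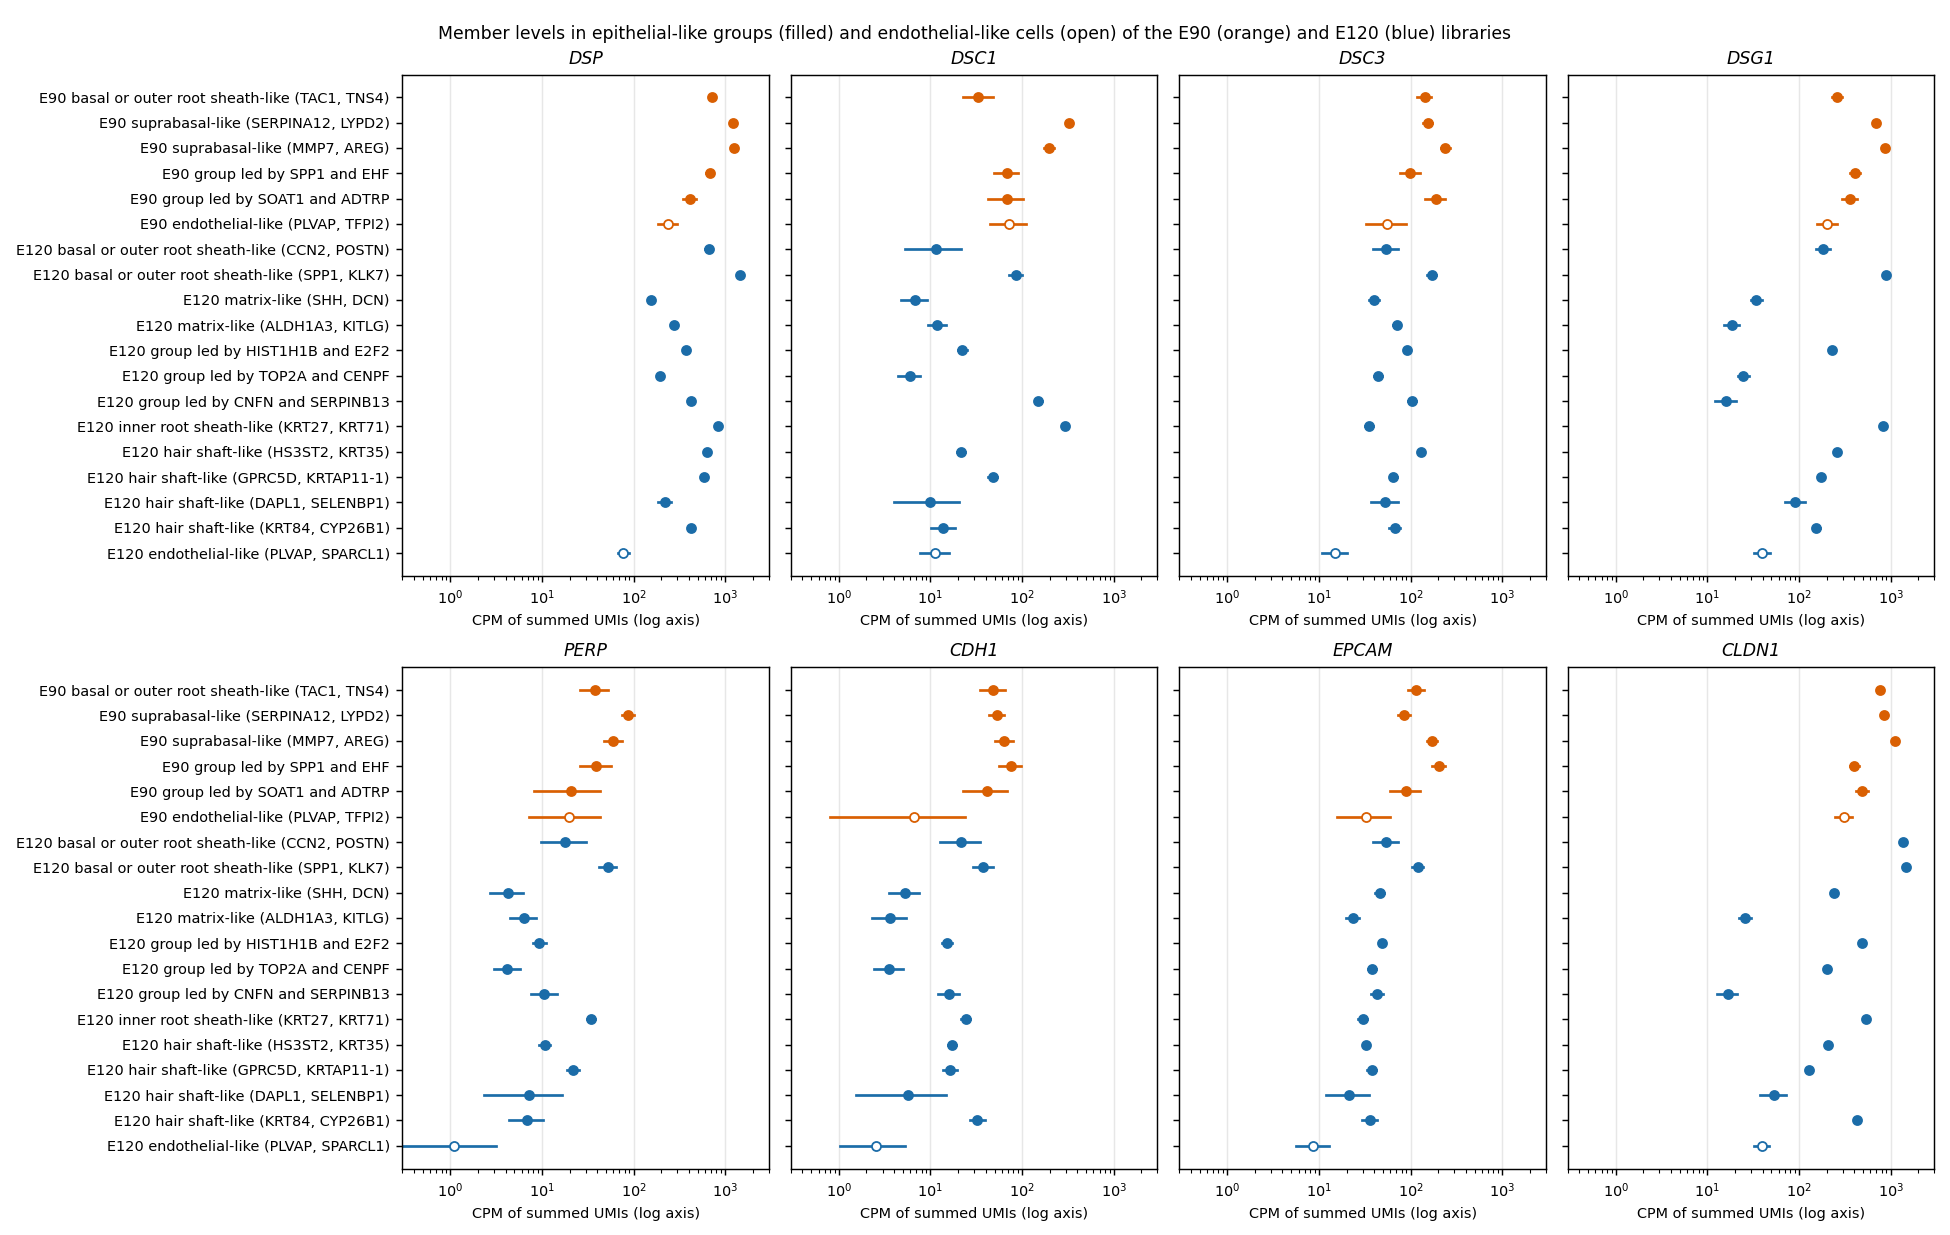
Level of each of the 8 genes (CPM, log axis) in the epithelial-like cell groups of E90 and E120 and in the endothelial-like cells of the same library, with exact Poisson 95% intervals. DSC1 and DSG1 spread over the widest range among the desmosomal genes of these 8 at E120, and neither was above the endothelial-like level in matrix-like cells.

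At E60 the 8 genes were almost without transcripts. In 65049552 UMIs there were 76 UMIs of DSP, 20 of DSG1, 4 of DSC3, 3 of CDH1, 3 of EPCAM and 0 of DSC1 and PERP. A single cell of 15458 UMIs carried 65 of the 76 DSP UMIs and 15 of the 20 DSG1 UMIs, together with 104 UMIs of KRT17, 14 of KRT5 and 14 of KRT15, keratins of basal and follicle epithelium. It held 0 UMIs of the basal markers KRT14 and TP63. It was the only E60 cell that clustered with the suprabasal-like cells of E90, and its barcode occurred in no other library. The E60 values of DSP and DSG1 therefore describe mainly 1 cell.

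CLDN1 stood apart at E60, with 426 UMIs in 260 cells, of which the keratin-rich cell above held 7 UMIs. Its level was 29.4 CPM (25.2 to 34.1) in dermal fibroblast-like cells led by MAP1LC3C and SEMA3C, 26.1 CPM (19.7 to 33.9) in mural-like cells and 25.6 CPM (21.5 to 30.4) in dermal fibroblast-like cells led by THBS4 and COL2A1. The intervals of these 3 groups overlapped. Endothelial-like cells held 4.57 CPM (2.09 to 8.68). With every cell thinned to 2000 UMIs, 4.8% and 3.76% of cells of the fibroblast-like groups had a CLDN1 UMI, so that most cells of these groups showed none at that depth.

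**Figure D2:**
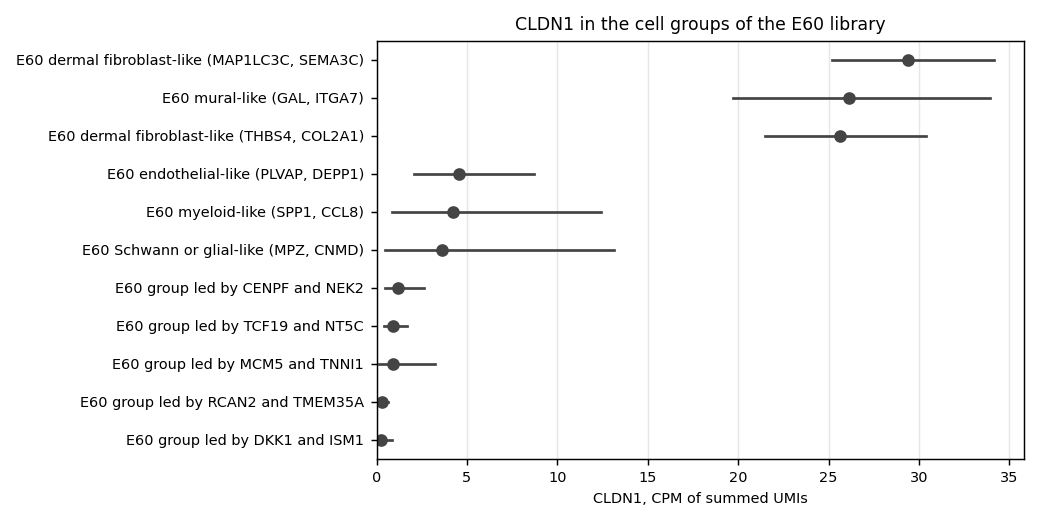
CLDN1 level (CPM, linear axis from 0) in each E60 cell group, with exact Poisson 95% intervals. The mural-like group and both dermal fibroblast-like groups lie between 25.6 and 29.4 CPM, above the endothelial-like 4.57 CPM.

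Over whole libraries, all 8 genes were at least 2-fold higher at E90 than at E60, a call that 21.3% of all genes tested passed in that direction and 8.08% in the other. All 8 were also higher at E120 than at E60, where the share over all genes was 19.4%. DSP went from 1.17 CPM at E60 to 448 CPM at E90 and 468 CPM at E120. DSC1 and PERP, at 0 UMIs at E60, were at least 2158-fold and at least 468-fold higher at E90 against a floor of 3 UMIs in the E60 library (0.0461 CPM). None of the 8 passed 2-fold between E120 and E90 in whole libraries, where 9.99% of all genes were called higher and 24.2% lower. In such whole-library sums, fewer cells of a type and fewer transcripts per cell cannot be told apart.

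Within epithelial-like cells, all 8 genes were lower at E120 than at E90 by 2-fold or more, a call that 27.7% of all genes passed in that direction and 9.33% in the other. PERP fell most, from 61.4 to 13.8 CPM (4.45-fold), followed by CDH1 from 56.8 to 15.3 CPM (3.72-fold), EPCAM from 128 to 38.9 CPM (3.30-fold) and DSC1 from 194 to 61.5 CPM (3.15-fold). CLDN1 went from 820 to 317 CPM and DSG1 from 602 to 257 CPM. DSP, at 1013 and 496 CPM, and DSC3, at 169 and 81.5 CPM, lay close to the 2-fold line. The makeup of the class differed between the libraries: suprabasal-like groups held 703 of the 1056 E90 cells, whereas E120 held matrix-like, inner root sheath-like and shaft-like groups that E90 lacked. Under finer clustering (resolution 2), with 2174 epithelial-like cells at E90, DSP, DSC3 and DSG1 no longer passed 2-fold and 5 genes remained called. The median log2 ratio of the 8 genes was -1.50, beside -0.36 for all genes tested. No background was taken off these levels. The endothelial-like levels of all 8 genes, PERP, CDH1 and EPCAM included, were also higher at E90 than at E120, without regard to their intervals. How much of the difference between the libraries comes from background was not tested.

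At E90 the 3 genes that were higher in suprabasal-like than in basal or outer root sheath-like cells were DSC1, DSG1 and PERP, and none was lower. Over all genes tested, 7.91% were called higher and 11.6% lower. DSC1 was 276 CPM in 703 suprabasal-like cells and 33.3 CPM in 126 basal-like cells, an 8.27-fold difference (interval 5.76 to 12.3). DSG1 was 759 against 260 CPM, or 2.92-fold higher (2.55 to 3.36). PERP, at 76.5 against 37.7 CPM, was 2.03-fold higher (1.41 to 2.99), and its interval reaches well under the 2-fold line. In basal-like cells none of the 3 was above the endothelial-like level, which was 71.9 CPM for DSC1, 203 CPM for DSG1 and 19.6 CPM for PERP. Dermal-like cells (fibroblast-like and papilla-like together) held 33.2 CPM of DSC1, 101 CPM of DSG1 and 2.58 CPM of PERP. The basal-like DSC1 level therefore cannot be told apart from background by either measure. Those of DSG1 and PERP lay over the dermal-like level and are not settled by the endothelial-like one. The other 5 stayed within 2-fold: DSP was 1223 against 723 CPM, DSC3 188 against 142 CPM, CDH1 57.1 against 47.7 CPM, EPCAM 120 against 115 CPM and CLDN1 956 against 764 CPM. Under resolution 2 the number called higher was 6 rather than 3, since DSP, DSC3 and CDH1 then reached log2 ratios of 1.26, 1.01 and 1.01. The DSG1 log2 ratio of 1.54 fell short of the call with each library clustered alone (0.38), with called doublets removed (0.56) and in 2 unused clustering settings (0.54 and 0.96). PERP fell short with a pseudocount of 10 CPM (0.86) and by the mean of per-cell CPM (0.97). DSC1 stayed called in every setting that gave a value, with log2 ratios of 1.69 to 3.43.

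Desmocollin use was read as the DSC1 share of DSC1 and DSC3 UMIs, which does not change with the depth or scaling of a group. A transcript gives 1 UMI at its 3′ end whatever its length, but capture can differ between genes, so such shares are compared between groups. In E90 basal-like cells (TAC1, TNS4) DSC1 made up 19.0% (exact binomial interval 13.2 to 26.0%). The share was 68.1% (65.0 to 71.0%) in the suprabasal-like group led by SERPINA12 and LYPD2, and 45.3% (41.3 to 49.5%) in the suprabasal-like group led by MMP7 and AREG. These 3 intervals do not overlap. Both sides of the share moved between the suprabasal-like groups: the SERPINA12 group held 328 CPM of DSC1 and 154 CPM of DSC3, and the MMP7 group 198 CPM of DSC1 and 239 CPM of DSC3. The epithelial group led by SPP1 and EHF stood at 40.5%, and the one led by SOAT1 and ADTRP at 26.4%.

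Within the pair, the background of the E90 library was itself rich in DSC1, which made up 56.4% (39.6 to 72.2%) in endothelial-like cells. The DSC1 level of both suprabasal-like groups was above the endothelial-like 71.9 CPM, and that of basal-like cells (33.3 CPM, 22.5 to 47.5) was under it. With cells thinned to 2000 UMIs, a DSC1 UMI was found in 44.7% of the SERPINA12 group, 7.94% of basal-like cells and 16.7% of endothelial-like cells. Median depths were 3956.5, 6655.5 and 3523.5 UMIs in these groups.

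Basal-like cells of E90 depended on the clustering: their DSC1 share was 37.8 to 41.9% under 8 of the other settings, in which more cells carried the name, and stayed under the suprabasal-like share in each of those.

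**Figure D3:**
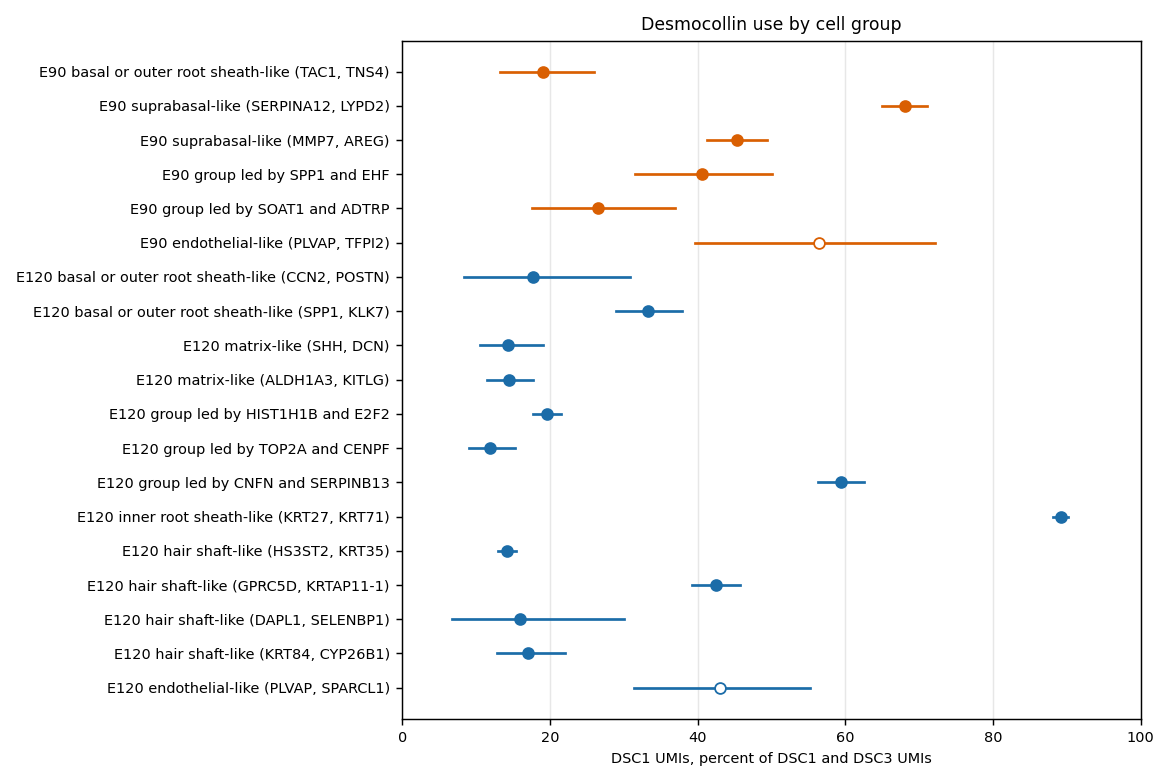
DSC1 as a percentage of DSC1 and DSC3 UMIs in each epithelial-like group and in endothelial-like cells of E90 and E120, with exact binomial 95% intervals. The inner root sheath-like group of E120 is highest at 89.2%, and the matrix-like groups lie at 14.3 and 14.4%.

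At E120 DSC1 reached its highest level in inner root sheath-like cells (KRT27, KRT71), with 292 CPM (282 to 302) in 610 cells. DSC3 had its lowest level there, 35.3 CPM, so that DSC1 made up 89.2% (88.1 to 90.2%) of the pair. Next in DSC1 came the group led by CNFN and SERPINB13, an epithelial group of 200 cells with no further name, at 150 CPM (138 to 163) and a share of 59.4%. This group expressed KRT75, a keratin known from the companion layer, among its leading genes. High DSC1 was not seen in every group with inner root sheath markers. In the dividing group led by HIST1H1B and E2F2 (1017 cells), KRT25, KRT28, KRT71 and GATA3 were found. Its DSC1 share was 19.5%, with 22.3 CPM of DSC1 and 91.7 CPM of DSC3. In thinned cells a DSC1 UMI was found in 38.2% of inner root sheath-like cells (82.3% unthinned, median depth 16579.5 UMIs), 26.5% of the CNFN group and 1.94% of endothelial-like cells (5.28% unthinned).

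In all 4 hair shaft-like groups DSC3 gave more UMIs than DSC1, and the DSC1 share was highest in the one led by GPRC5D and KRTAP11-1, genes known from late shaft cells. DSC1 made up 42.4% (39.2 to 45.7%) of the pair there, with 47.6 CPM of DSC1 and 64.6 CPM of DSC3. The group led by HS3ST2 and KRT35, the largest with 1277 cells, had 130 CPM of DSC3 and 21.4 CPM of DSC1, a share of 14.2% (12.9 to 15.4%). The groups led by KRT84 and CYP26B1 and by DAPL1 and SELENBP1 stood at 17.0% and 15.9%. The matrix is the layer of dividing cells at the base of the follicle, though no division gene was among the leading genes of the ALDH1A3 and KITLG group. In matrix-like cells the share was 14.3% in the group led by SHH and DCN and 14.4% in the one led by ALDH1A3 and KITLG. Their DSC1 levels of 6.73 and 11.9 CPM were not above the endothelial-like 11.3 CPM, nor was the 5.96 CPM of the group led by the division genes TOP2A and CENPF. Of the 12 epithelial-like groups of E120, 6 were above the endothelial-like DSC1 level, compared with 12 of 12 for DSC3.

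The basal or outer root sheath-like groups of E120 differed in DSC1, with 11.5 CPM in the one led by CCN2 and POSTN and 84.8 CPM in the one led by SPP1 and KLK7. Their DSC1 shares were 17.6% (8.4 to 30.9%) and 33.3% (28.9 to 37.8%). In the SPP1 and KLK7 group the DSC1 UMIs came from 38 of 212 cells, 17.9%. The class as a whole stood at 31.7%, and this value depended on which cells were grouped with it: it was 1.97% at resolution 2, 0% when junction genes were allowed to shape the clusters, and 5.83% with each library clustered alone.

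Desmoglein use also differed between compartments. DSG1 made up 99.6% of the 9147 desmoglein UMIs (DSG1, DSG2, DSG3 and DSG4) in inner root sheath-like cells, which held 825 CPM of DSG1. Endothelial-like cells of E120 had a DSG1 share of 90.8% (84.2 to 95.3%). At E90 DSG1 made up 94.1 and 94.3% in the suprabasal-like groups. Its share was much the same in non-epithelial cells of E90, at 94.6% in dermal-like and 89.9% (80.2 to 95.8%) in endothelial-like cells. The suprabasal-like share is thus not particular to those groups. In basal-like cells DSG1 made up 75.0%, and DSG2 and DSG3 took 15.1 and 9.94%. The basal-like DSG1 level was not above that of endothelial-like cells. DSG4 had 0 UMIs in every epithelial-like group of E90.

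In the late shaft-like group (GPRC5D, KRTAP11-1), DSG1 took 52.3% and DSG4 43.7% (41.8 to 45.6%) of 2693 desmoglein UMIs. DSG4 was 147 CPM there, and 17.0 and 16.9 CPM in the KRT84 and HS3ST2 groups, where it made up 9.76 and 5.54%. In the CNFN group DSG3 took 80.5% (75.8 to 84.6%) of 338 desmoglein UMIs, whereas DSG1 took 18.0% (14.1 to 22.6%). Its DSG1 level of 15.8 CPM lay under the endothelial-like 39.6 CPM. In the same group DSC1 exceeded DSC3, so desmocollin and desmoglein use did not run in parallel there.

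In matrix-like cells no desmoglein took more than 52.7%. In the SHH group DSG1 took 52.7%, DSG2 34.1% and DSG3 12.7% of 387 desmoglein UMIs. In the ALDH1A3 group DSG1 took 36.4%, DSG2 19.6% and DSG3 43.3% (37.8 to 48.9%) of 321. The TOP2A group had a like mixture, with 44.4% DSG1, 36.3% DSG2 and 18.1% DSG3. DSG1 levels were 34.3 and 18.5 CPM in the matrix-like groups and 24.7 CPM in the TOP2A group, none above the endothelial-like 39.6 CPM, so the DSG1 part of these mixtures cannot be told apart from background. DSG1 varied 56.5-fold between the highest and the lowest of the 12 E120 groups, though its lowest level, like that of DSC1 and CLDN1, lay under the endothelial-like one. In RefSeq (assembly ARS1.2) DSG2, DSG3, DSG4, DSG1, DSC1 and DSC3 follow each other in that order along 1 chromosome region, with DSG1 and DSC1 as direct neighbours.

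**Figure D4:**
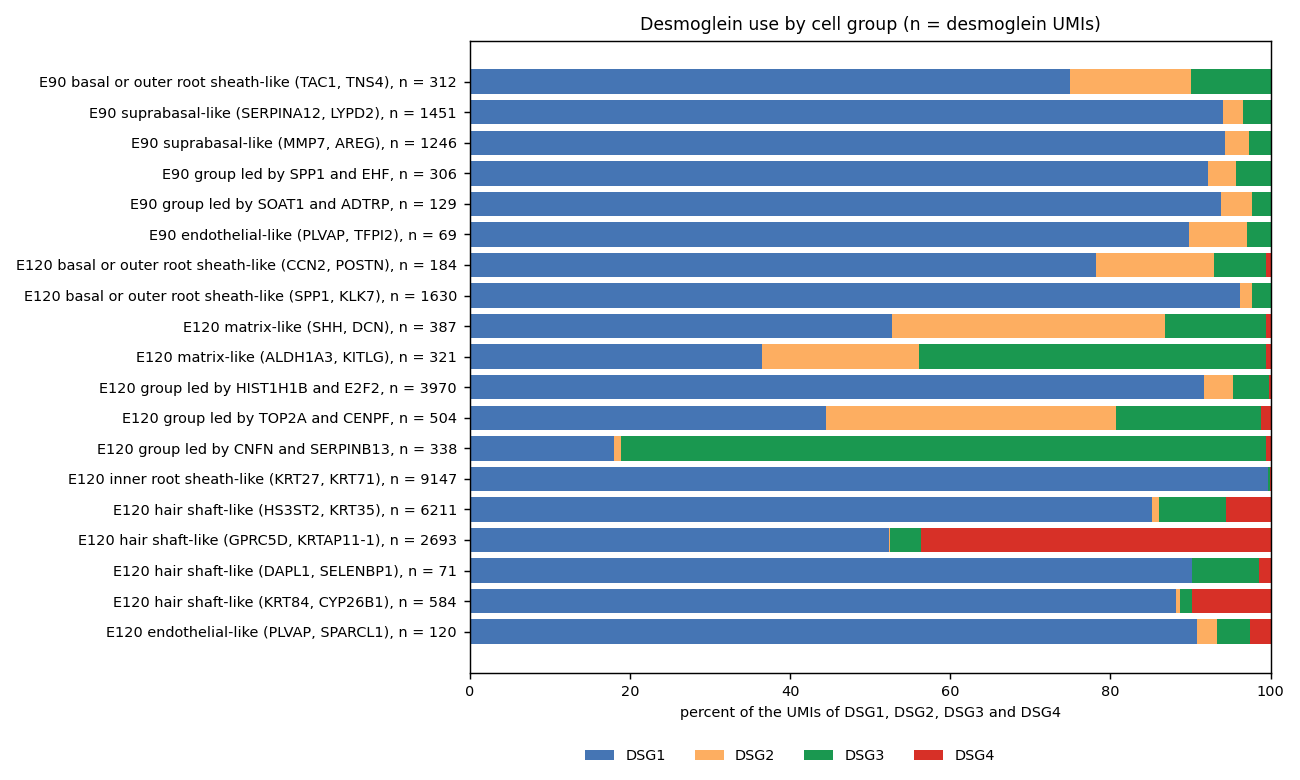
Share of desmoglein UMIs from DSG1, DSG2, DSG3 and DSG4 (stacked, percent) in each epithelial-like group and in endothelial-like cells of E90 and E120. DSG1 fills 99.6% of the inner root sheath-like bar, DSG4 takes 43.7% in the late shaft-like group and DSG3 80.5% in the group led by CNFN and SERPINB13.

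DSP, the plakin that every desmosome uses, was found above the endothelial-like level in all 5 E90 and all 12 E120 epithelial-like groups. At E90 it was 1255 and 1201 CPM in the suprabasal-like groups (MMP7, SERPINA12), 723 CPM in basal-like cells, 674 CPM in the SPP1 and EHF group and 409 CPM in the SOAT1 group. At E120 it was highest in the SPP1 and KLK7 group at 1447 CPM and in inner root sheath-like cells at 831 CPM. It was lowest in the SHH matrix-like group at 154 CPM, with 192 CPM in the TOP2A group and 276 CPM in the ALDH1A3 group. The range over E120 groups was 9.37-fold, narrower than that of DSC1 (49.0-fold) or DSG1.

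PERP followed DSP most closely among the 8 genes: over 16 epithelial groups the Pearson correlation of their log2(CPM + 1) values was 0.92, the highest of any pair, and that of DSC1 with CLDN1, 0.27, the lowest. These are descriptions across groups that share libraries, background and depth. PERP was 87.6 and 60.0 CPM in the suprabasal-like groups led by SERPINA12 and MMP7, which were the 2 of 5 E90 groups above the endothelial-like level of 19.6 CPM. At E120 it ranged from 52.4 CPM in the SPP1 and KLK7 group and 34.4 CPM in inner root sheath-like cells to 4.19 CPM in the TOP2A group. All 12 groups were above the endothelial-like 1.09 CPM.

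CDH1 was the most even of the 8 at E90, with 41.2 to 75.0 CPM over the 5 epithelial-like groups, a 1.82-fold range, against 6.54 CPM in endothelial-like cells. Its highest value there was in the SPP1 and EHF group. At E120 it ranged 10.6-fold, from 37.6 CPM in the SPP1 and KLK7 group to 3.53 CPM in the TOP2A group. The matrix-like groups held 5.22 and 3.64 CPM, and the endothelial-like value was 2.54 CPM. Of the 12 groups, 8 were above that value, and the interval of the ratio included 1 in the other 4. These 4 had the lowest levels and included both matrix-like groups and the TOP2A group. Their CDH1 levels cannot be told apart from background by that measure, so the lower end of the range is not settled. The KRT84 shaft-like group, at 32.5 CPM, was nearer to outer root sheath-like cells than to the HS3ST2 shaft-like group at 17.1 CPM.

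EPCAM was highest at E90 in the SPP1 and EHF group at 203 CPM and the MMP7 suprabasal-like group at 173 CPM, followed by 115 CPM in basal-like cells. The SERPINA12 suprabasal-like group had the lowest level, 84.6 CPM, and the SOAT1 group 88.2 CPM. At E120 the 12 groups ranged 5.59-fold. The SPP1 and KLK7 group held 120 CPM, the CCN2 group 53.5 CPM, the SHH matrix-like group 45.9 CPM, the ALDH1A3 matrix-like group 23.4 CPM and inner root sheath-like cells 30.2 CPM. All 12 were above the endothelial-like 8.72 CPM.

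CLDN1 ranged 89.7-fold over the E120 groups. It was 1487 and 1368 CPM in the outer root sheath-like groups led by SPP1 and by CCN2, 536 CPM in inner root sheath-like cells and 492 CPM in the dividing group led by HIST1H1B and E2F2. Among shaft-like groups it was 424 CPM in the KRT84 group, 205 CPM in the HS3ST2 group and 128 CPM in the GPRC5D group. The matrix-like groups were unlike each other, with 241 CPM in the SHH group and 26.0 CPM in the ALDH1A3 group. The latter, like the 16.6 CPM of the CNFN group, lay under the endothelial-like 39.2 CPM. The SHH, HS3ST2 and GPRC5D groups lay above the endothelial-like level but under that of E120 mast-like cells, given under Other observations. Thinned to 2000 UMIs, 31.1% of SHH cells and 3.25% of ALDH1A3 cells had a CLDN1 UMI, beside 4.17% of endothelial-like cells. At E90 the range was only 2.80-fold, from 401 CPM in the SPP1 and EHF group to 1125 CPM in the MMP7 group.

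Against outer root sheath or basal-like cells of E120 (401 cells), all 8 genes were lower in matrix-like cells (1086 cells), a call that 18.6% of all genes tested passed in that direction and 8.69% in the other. DSG1 differed most, at 26.2 against 673 CPM, or 25.7-fold lower (interval 22.8 to 29.0). The reference pools unlike groups, with 892 CPM of DSG1 in the SPP1 and KLK7 group and 183 CPM in the CCN2 group. In the CCN2 group DSC3, DSC1 and EPCAM were 53.5, 11.5 and 53.5 CPM, within 2-fold of the matrix-like levels given below. CLDN1, at 130 against 1450 CPM, was 11.1-fold lower. DSP was 217 against 1204 CPM, PERP 5.30 against 41.7 CPM, CDH1 4.41 against 32.6 CPM, EPCAM 34.4 against 99.1 CPM, and DSC3 55.9 against 134 CPM. Over all other settings the log2 ratio stayed between -4.69 and -3.37 for DSG1 and between -3.80 and -2.88 for CLDN1. DSC1 was 9.38 against 62.1 CPM, but its direction turned with the clustering, with log2 ratios of -2.60 here, 1.84 at resolution 2, 3.08 with junction genes allowed in the clustering and 0.81 with each library clustered alone.

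Inner root sheath-like cells had less DSC3, EPCAM and CLDN1 and more DSC1 than the outer root sheath-like class, with DSP and DSG1 within 2-fold. DSC1 was the 1 gene of the 8 called higher, at 292 against 62.1 CPM, or 4.69-fold (4.0 to 5.54), where 4.43% of all genes were called higher. DSC3 (35.3 against 134 CPM), EPCAM (30.2 against 99.1 CPM) and CLDN1 (536 against 1450 CPM) were lower, where 25.8% of all genes were called lower. The log2 ratios of DSP, DSG1, PERP and CDH1 were -0.53, 0.29, -0.27 and -0.42, within 2-fold. The DSC1 log2 ratio was 2.21 and ranged from 1.32 to 8.19 over the other settings. The highest value came with junction genes allowed in the clustering, where the reference class had 0 DSC1 UMIs, so it rests on the pseudocount of 1 CPM. With each library clustered alone, 2 genes were called higher and 0 lower.

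Hair shaft-like cells (1964 cells) were lower than the same class in 6 of the 8 genes, where 26.4% of all genes were called lower and 8.17% higher. CLDN1 differed most, at 205 against 1450 CPM, followed by PERP (13.0 against 41.7 CPM), DSG1 (225 against 673 CPM), EPCAM (33.8 against 99.1 CPM), DSC1 (26.9 against 62.1 CPM) and DSP (589 against 1204 CPM). DSC3, at 106 CPM, and CDH1, at 18.2 CPM, stayed within 2-fold. With each library clustered alone only 1 of the 6 was still called, and DSP and DSC1 then had log2 ratios of 0.26 and 2.38 in place of -1.03 and -1.18. DSC1 also turned at resolution 2 (2.84) and with junction genes allowed in the clustering (4.82). The 3 follicle comparisons share the outer root sheath-like class as their reference, which pools unlike groups. KRT10 and KLK10, suprabasal markers, were among the leading genes of its SPP1 and KLK7 group, which held most of its UMIs. That group had 1447 CPM of DSP, 892 of DSG1, 170 of DSC3 and 52.4 of PERP. The CCN2 group had 660, 183, 53.5 and 17.8 CPM. Shaft-like DSG1, DSC1 and DSC3 and inner root sheath-like DSG1, DSP and PERP lay over the levels of the CCN2 group.

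**Figure D5:**
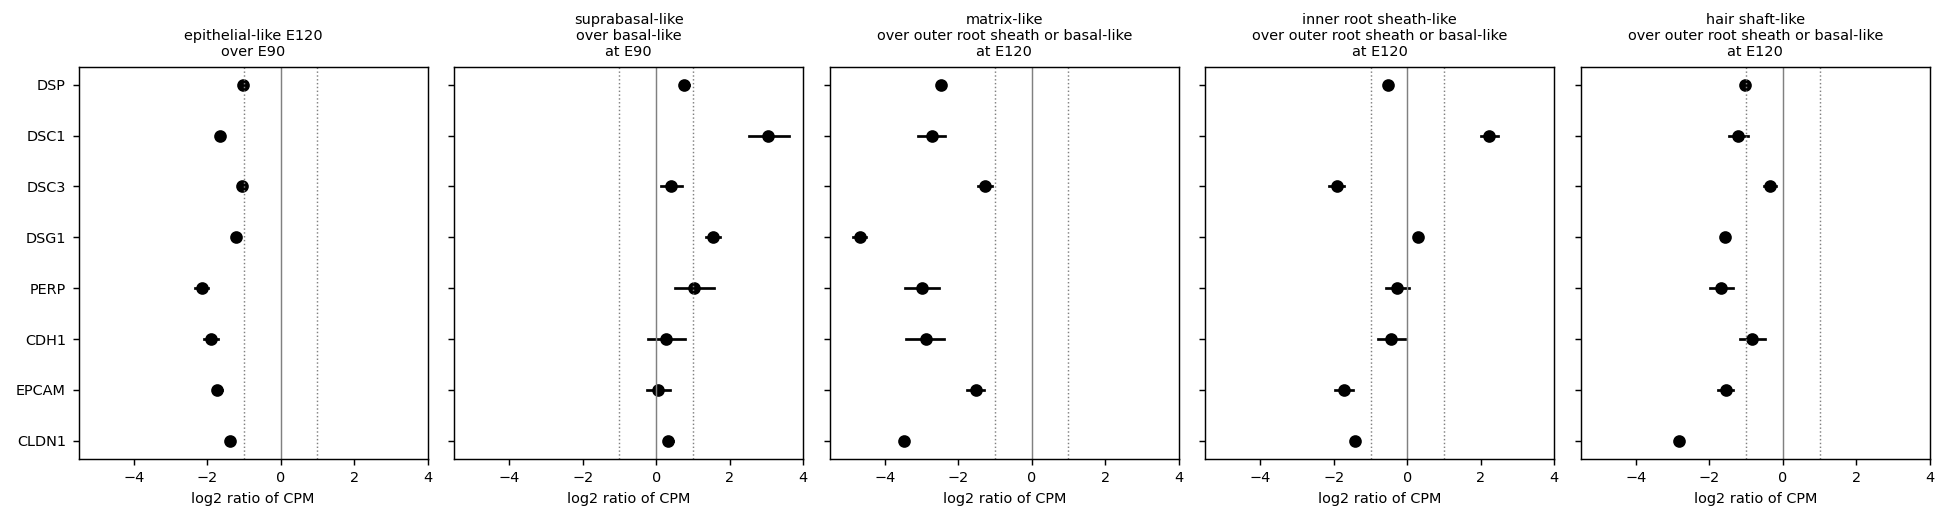
Log2 ratio of CPM of the 8 genes in 5 comparisons of epithelial-like groups, with 95% intervals for counting error and dotted lines at 2-fold. The 2-fold call itself was made on CPM + 1. All 8 lie under the lower line for matrix-like over outer root sheath-like cells, and DSC1 is the 1 gene above the upper line for inner root sheath-like cells.

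Other junction genes were described from 3 lists, of desmosomes, adherens junctions, and tight junctions with EPCAM partners, which include the 8 genes and were chosen with earlier results of these data known. Of their 51 genes, 46 were in the table. In suprabasal-like against basal-like cells of E90, 4 of 12 tested desmosome genes were higher and 1 lower. EVPL, the plakin envoplakin, was 39.4 against 14.4 CPM, and DSG2 was the gene that was lower, at 21.8 against 52.2 CPM. In the adherens list 0 of 8 were higher and 1 lower, VCL (log2 ratio -1.09), the actin linker vinculin. In the tight junction list 3 of 12 were higher and 0 lower, with CLDN4 at 92.3 against 7.77 CPM and OCLN (occludin) at 13.5 against 4.44 CPM. Over all genes tested, 7.91% were called higher and 11.6% lower. The lists' median log2 ratios were 0.58, 0.25 and 0.46, beside -0.24 for all genes tested.

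In matrix-like against outer root sheath-like cells, 10 of 13 desmosome, 5 of 8 adherens and 9 of 12 tight junction genes were lower and none was higher. DSC2 was 1.55 against 24.0 CPM, the adherens scaffold AFDN 77.0 against 221 CPM and CLDN10 6.69 against 73.5 CPM. Over all genes tested, 18.6% were called lower and 8.69% higher. The median log2 ratios were -2.19, -1.08 and -1.85, beside -0.02 for all genes tested. Inner root sheath-like cells had 2 of 13 desmosome genes higher and 4 lower: EVPL was 77.0 against 27.5 CPM, and DSC2, DSG2 and DSG3 had log2 ratios of -4.02, -3.69 and -3.02. In the adherens list 2 of 8 were lower, and in the tight junction list 5 of 12, with CLDN10 at 2.81 against 73.5 CPM. Over all genes tested, 25.8% were called lower and 4.43% higher in this comparison, so the counts of lower desmosome and adherens genes lay near the share over all genes. Medians were -0.43, -0.63 and -0.82, beside -0.33 for all genes tested.

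Shaft-like cells had 1 of 14 desmosome genes higher, DSG4 at 48.7 against 0.39 CPM, and 7 lower, with 3 of 8 adherens and 7 of 12 tight junction genes lower. Over all genes tested, 26.4% were called lower and 8.17% higher. The lists' medians were -1.0, -0.88 and -1.13, beside -0.30 for all genes tested. In epithelial-like cells of E120 against E90, 1 of 13 desmosome genes was higher and 6 were lower, 5 of 9 adherens genes were lower, and 2 of 12 tight junction genes were higher and 6 lower. DSG4 was 18.5 CPM at E120 and 0 CPM at E90, CLDN10 was 11.4 against 0.57 CPM and SPINT1, a membrane protease inhibitor, 81.2 against 34.1 CPM. CLDN4 went the other way, at 6.19 against 70.8 CPM. Over all genes tested, 27.7% were called lower and 9.33% higher at E120. Medians were -0.65, -1.37 and -1.13, beside -0.36 for all genes tested. CLDN4 and CLDN10 thus differed between the stages in opposite directions.

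For each gene the most similar genes outside the lists were taken by the Pearson correlation of log2(CPM + 1) over 39 cell groups, each a cluster in its main library, among 4164 genes with at least 50 CPM in a group. DSP was like ESRP1 (0.986) and FAM83B (0.953), and DSC3 like ESRP1 (0.977) and FAM83B (0.946). EPCAM was like the same genes, at 0.945 for ESRP1 and 0.933 for FAM83B. The 2 upper-layer cadherins shared MAB21L4: DSC1 was most like SPINK5 (0.932), MAB21L4 (0.918) and CALML5 (0.910), and DSG1 like FAM83B (0.955), RHOV (0.952) and MAB21L4 (0.951). SPINK5 and CALML5 are among the markers that named suprabasal-like cells.

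CDH1 was most like KLC3 (0.934), PDZK1IP1 (0.929) and RHOV (0.929), PERP like CERS3 (0.868), KLC3 (0.866) and RAB11FIP1 (0.863), and CLDN1 like PRRG4 (0.929), FAM83B (0.912) and KLK10 (0.905). These correlations span epithelial-like and non-epithelial groups of all 3 libraries, and how much of them comes from that contrast was not tested. Among the 8 genes, most pairs had a lower correlation over the 16 epithelial groups than over all 39. For DSC1 and DSC3 it was 0.53 against 0.91. PERP went the other way with DSP (0.92 against 0.86) and with DSC1 (0.85 against 0.84).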

How the data were processed

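The deposited table held natural log values. The values showed that the authors had brought each cell's counts to a sum of 10000, added 1 and taken the log. UMI counts were recovered by inversion, and 100% of nonzero values came out whole within a tolerance of 0.01. The planned design had assumed deposited counts. Cell Ranger 3.0.2 is named per the submitters' processing notes. Genome build, annotation and filters are not given in the sources used here.

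Cells (6849, 6931 and 6896) were clustered together without removal of any cell: 3000 variable genes without the 8 genes and the junction lists, 50 principal components, 20 neighbours, Leiden resolution 1, giving 42 clusters (leidenalg 0.10.2, igraph 0.11.9, scikit-learn 1.9.0, numpy 2.4.6, scipy 1.17.1, Python 3.11.15). These settings and the naming rule were chosen after 7 other settings had been compared on these data, with the levels of the 8 genes in view. They separated 14 E90 groups, against 7 to 11 under the others. Results under all 7 are included in the closing section. The 8 genes and all lists were chosen with earlier results of these data known.

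A marker was found in a group if in at least 10% of its cells and at least 2 times the median group, and a name needed 3 markers. For epithelial names, general epithelial markers counted among the 3. In the ALDH1A3 and KITLG group, ALDH1A3 and NPTX2 were the markers found from the matrix list. Counts were summed per group and given as CPM. A gene was tested with at least 10 CPM in the higher group, and called at 2-fold or more in the ratio of CPM + 1. With 1 library per stage, no p-value is given. Intervals at 95% are exact Poisson or exact binomial (Clopper-Pearson) and cover counting error only. Named genes were all 8, the 3 largest called list genes in each direction, of which examples are printed, and the 3 most similar genes of each; some of these are not reported here. Methods were tested on simulated data. Alternatives were other pseudocounts, scalings, clusterings, and filters on cells and doublets. RefSeq (ARS1.2) was used for gene order only.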

Additional observations from a re-analysis of the deposited data

How the results depend on the processing

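Of the 29 ratios between cell groups called in the main analysis, all kept their sign in every alternative except resolution 2 (27), junction genes allowed in the clustering (27) and each library clustered alone (26). Of the 29, 17 stayed past 2-fold with each library clustered alone, 23 at resolution 2, 25 with called doublets removed or by the mean of per-cell CPM, and 25 to 29 in the other alternatives that gave all ratios. One of the unused settings (3000 genes by library, unscaled) named no basal-like cells at E90 and gave no value there for the suprabasal comparison or the DSC1 share, and all of its 26 remaining called ratios kept their sign. The E90 library had the lowest depth and the highest level of the 8 genes in endothelial-like cells, and 5001 of its 6931 cells were in unnamed groups. No paired analysis was possible because each stage is 1 library. Scaling by the median of ratios used log2 factors of -0.14 (E120 over E90, epithelial-like), -0.22 (suprabasal over basal-like) and -0.16 (inner over outer root sheath-like), under which 26 of the 29 called ratios stayed past 2-fold. The cause of the changes listed next was not tested.

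The 8 genes lower in epithelial-like cells of E120 than of E90 became 5 at resolution 2, with junction genes allowed, with called doublets removed, and under 4 unused settings. The 3 higher in suprabasal-like cells became 6 (resolution 2, junction genes allowed) or 5 (2000 genes over all cells, scaled or not), and the lowest count was 2. Against the outer root sheath-like class, matrix-like cells had 1 gene higher at resolution 2, shaft-like cells had 1 higher at resolution 2, with junction genes allowed and with libraries alone, and with libraries alone inner root sheath-like cells had 2 higher and 0 lower and shaft-like cells 1 lower. Whole libraries of E120 had 1 gene lower than E90 by the mean of per-cell CPM and 3 after the filter on cells (at least 1000 genes, at most 10% mitochondrial counts).

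The log2 ratio over outer root sheath-like cells turned for DSC1 in matrix-like cells (1.84 at resolution 2, 3.08 with junction genes allowed, 0.81 with libraries alone), for DSC1 in shaft-like cells (2.84, 4.82 and 2.38) and for DSP in shaft-like cells (0.26 with libraries alone).

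The DSC1 share in E90 basal-like cells (19.0%) was 39.3% at resolution 2, 37.8% with junction genes allowed, 41.9% with libraries alone, 41.6% without called doublets, and 37.8, 38.7, 40.0 and 40.2% under 4 unused settings. In E90 suprabasal-like cells (59.4%) it was 72.1% at resolution 0.5, 71.8% with libraries alone, 70.1% with the filter on cells, 71.1% without called doublets, 71.7% without the 6% of highest doublet scores (an alternative added after seeing the data, as were the unused settings), and 62.5, 70.0, 66.6, 64.7 and 63.5% under 5 unused settings. In E120 outer root sheath-like cells (31.7%) it was 1.97% at resolution 2, 0% with junction genes allowed and 5.83% with libraries alone. In matrix-like cells (14.4%) it was 18.6% at resolution 2, and 12.0 and 11.9% under 2 unused settings. In inner root sheath-like cells (89.2%) it was 79.1% at resolution 2, 79.2% with libraries alone, 75.0% with the filter on cells, and 90.5, 78.9, 79.5, 83.8, 79.2 and 79.6% under 6 unused settings. In shaft-like cells (20.3%) it was 22.0 and 22.4% under 2 unused settings.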

Other observations

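Several of the 8 genes had more UMIs in E120 mast-like than in endothelial-like cells, CLDN1 by 7.56-fold (5.85 to 9.80). In 98 of these cells (FCER1A, CPA3; median depth 3718.5 UMIs) its level was 297 CPM (250 to 350), above the 39.2 CPM of endothelial-like cells of the same library and close to the 301 CPM of the whole library. In the same mast-like cells DSG1 was 104 CPM, against 39.6 CPM in endothelial-like cells (2.62-fold, 1.84 to 3.69), and DSP 108 against 77.0 CPM, while DSC1 was 20.7 against 11.3 CPM with an interval of the ratio that holds 1. With cells thinned to 2000 UMIs, 33.7% of mast-like and 4.17% of endothelial-like cells of E120 had a CLDN1 UMI. In 65 mast-like cells of E90 the thinned share was 47.7%, beside 47.4% in E90 endothelial-like cells.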
